A study of Saccharomyces cerevisiae with 12 samples.

Results

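The genes described here are 45 heat shock and chaperone genes of the budding yeast Saccharomyces cerevisiae. They comprise the heat shock transcription factor gene HSF1, the HSP90 and HSP70 families with their cofactors, the J proteins, the genes that handle aggregated proteins, the mitochondrial chaperones, and the CCT chaperonin ring. They were chosen by gene symbol, and a probe set was used where the platform annotation gave it one of these symbols alone. By this rule 43 of the 45 had a probe set of their own, of 5656 such genes on the array, and all 43 were among the 5368 genes tested. No array had any of the 43 below the intensity floor of 34.5. SSB1 and SSB2 share a single probe set and are described from it.

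RNA of 3 strains had been hybridized to 12 one-colour Affymetrix arrays, 2 in each of 6 groups. The groups were C403A with MMS, C403A untreated, C406A with MMS, C406A untreated, wild type with MMS and wild type untreated, where MMS stands for methyl methanesulfonate, a DNA-methylating agent, given at 0.03% for 30 minutes. C403A and C406A are mutants of TFIIH, the general transcription factor that opens promoters and also serves nucleotide excision repair. Which subunit carries the substitutions is not in the labels, and from knowledge of the study it is Ssl1. The labels name no parent strain, growth condition or number of cultures. A p-value here therefore reflects how far arrays of 1 group lay apart, which may be technical spread, and precision is limited by there being 2 arrays a group.

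SSL1 read 4840 and 5021 in untreated C403A and 3691 and 3485 in untreated C406A, against 1734 and 1697 in untreated wild type. It was thus higher in both mutants, by 1.52 and 1.06 on the log2 scale, and the arrays do not read the substitutions themselves. Array medians of the deposited intensity lay between 184 and 310.2, and replicate arrays correlated with r of 0.985 to 0.993 across genes, which are not independent replicates. Arrays were scanned strain by strain on 1 day, and in each strain both untreated arrays were scanned before both MMS arrays. Neither strain nor treatment can therefore be told apart from scan order. The summed signal of 10 ribosomal RNA control probe sets was 2246 to 3429 in C403A with MMS, 537.3 to 17750 in C403A untreated, 1804 to 2405 in C406A with MMS, 1607 to 2445 in C406A untreated, 666.5 to 1354 in wild type with MMS and 592.2 to 6508 in wild type untreated. C403A untreated array 2 and wild type untreated array 2 stood apart in this signal. Intensities are given after quantile normalization of the arrays, and changes are log2 differences of group means with the standard error of limma's fit to all arrays. A gene was called at an adjusted p below 0.05 (Benjamini-Hochberg over all genes tested). Without normalization the median gene shifted with MMS by 0.28 in C403A, 0.43 in C406A and 0.24 in wild type, so every change is relative to the bulk of the transcripts. In RNA from a whole culture, fewer cells with a transcript and less of it per cell cannot be told apart.

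Chaperones bind unfolded proteins and help them to fold, to be refolded after damage, or to be degraded. In yeast, Hsf1 binds the promoters of many chaperone genes and is held in check by HSP70 until unfolded proteins accumulate, while the general stress factors Msn2 and Msn4 act on an overlapping set. HSP70 works with J proteins, which stimulate its ATPase, and with exchange factors, which release ADP. HSP104 pulls proteins out of aggregates that small heat shock proteins have bound, HSP90 finishes the folding of kinases, receptors and other clients, and the CCT ring folds actin and tubulin.

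With MMS, most of these genes rose. In the mean response of the 3 strains 31 of the 43 were called higher and 2 lower, where 25.2% of all genes tested were called higher and 22.2% lower. The median change of the 43 was 0.25, against 0.00 for all genes. Counted by strain, 15 rose and 0 fell in C403A, where 8.42% of all genes were called higher and 7.13% lower. In C406A 20 rose and 1 fell, where 12.7% of all genes were called higher and 11.2% lower. In wild type 28 rose and 1 fell, where 19.1% of all genes were called higher and 13.8% lower. The median changes of the 43 were 0.23, 0.25 and 0.32 in these strains, against 0.00, 0.00 and 0.02 for all genes. With arrays scaled to the same median the mean response had 21 members higher and 4 lower, where 48.9% of all genes were called. The C406A response then had 16 higher and 3 lower, where 22.8% of all genes were called. With arrays scaled to the hybridization controls instead, 2 members were called in C403A (3.92% of all genes), 20 in C406A (17.5%), 15 in wild type (15.2%) and 21 in the mean response (29.4%), and with the 2 compared groups fitted alone 1 was called in C403A (1.97% of all genes). Both arrays with MMS lay above both untreated arrays for 25 of the 43 in C403A (28% of all genes), 28 in C406A (34.4%) and 31 in wild type (35.8%).

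**Figure D1:**
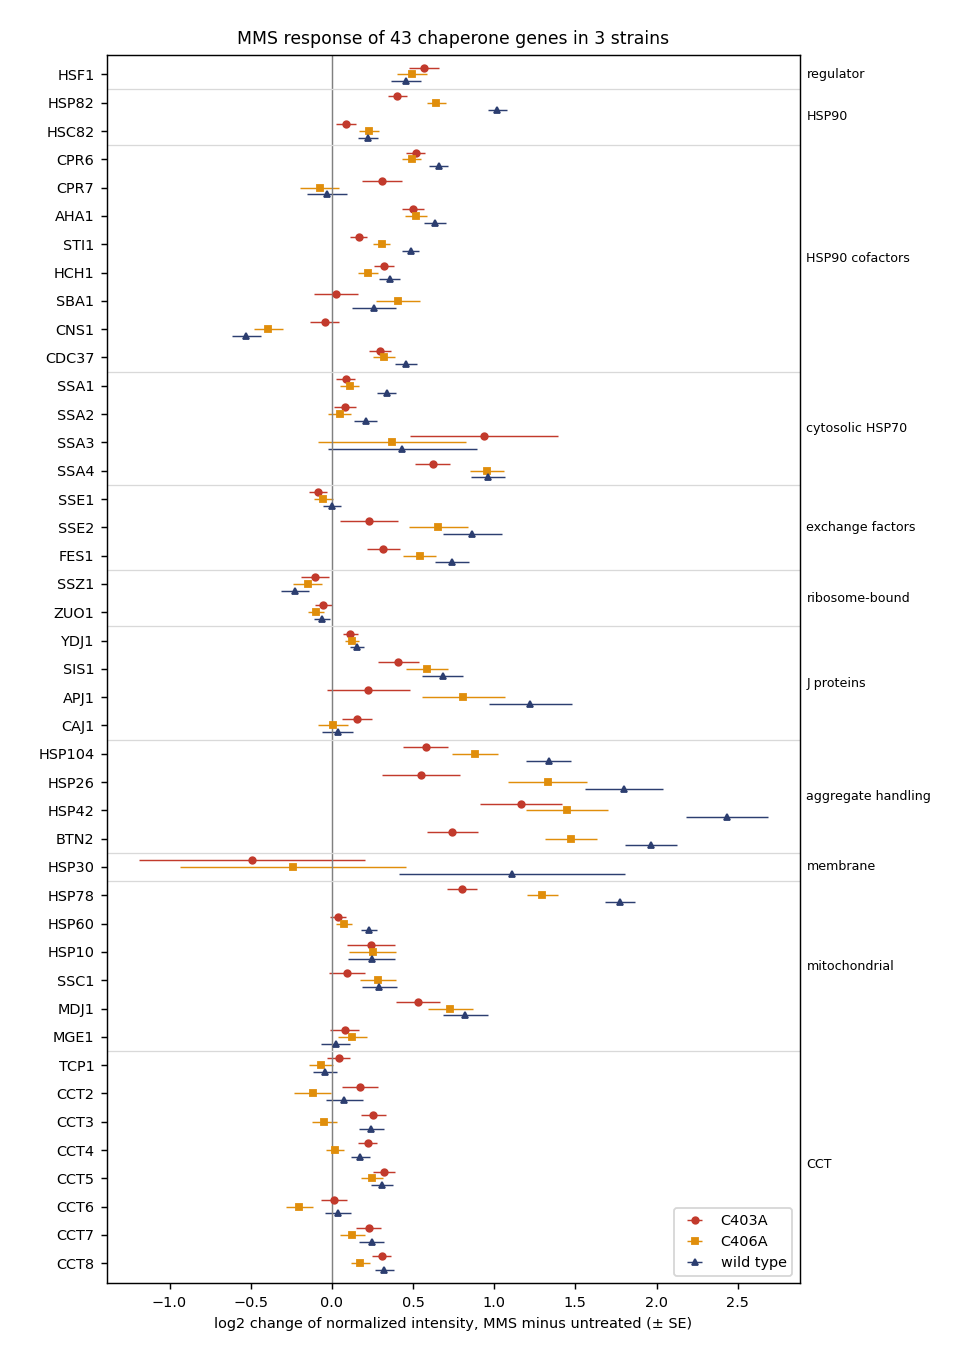
The log2 change of normalized intensity with MMS (horizontal axis) for each of the 43 genes, grouped by role, in C403A (circles), C406A (squares) and wild type (triangles), with bars for the standard error. The genes for aggregate handling and HSP78 reach the largest changes, up to 2.43 for HSP42 in wild type, while SSE1, ZUO1, MGE1 and TCP1 stay within 0.13 of 0 in each strain.

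In 15 members the mean response was a called rise of at least 0.5 on the log2 scale. These were HSF1, HSP82, CPR6, AHA1, SSA4, SSE2, FES1, SIS1, APJ1, HSP104, HSP26, HSP42, BTN2, HSP78 and MDJ1. These calls in the mean response held without any 1 array and under every other setting that tested the gene. APJ1, a dim gene, was not tested with the floor at the 40th percentile. The values of these genes on each array follow, by role.

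HSF1 encodes the heat shock transcription factor itself, which is essential for growth. It read 463 and 512 with MMS against 335 and 323 untreated in C403A, 490.2 and 442 with MMS against 325 and 335 untreated in C406A, and 444 and 489.6 with MMS against 346 and 333 untreated in wild type. Every MMS array lay above every untreated array, and the strains differed little. The changes were 0.57 ± 0.09 in C403A, 0.50 ± 0.09 in C406A and 0.46 ± 0.09 in wild type, with adjusted p of 0.00381, 0.0045 and 0.00432 (limma).

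**Figure D2:**
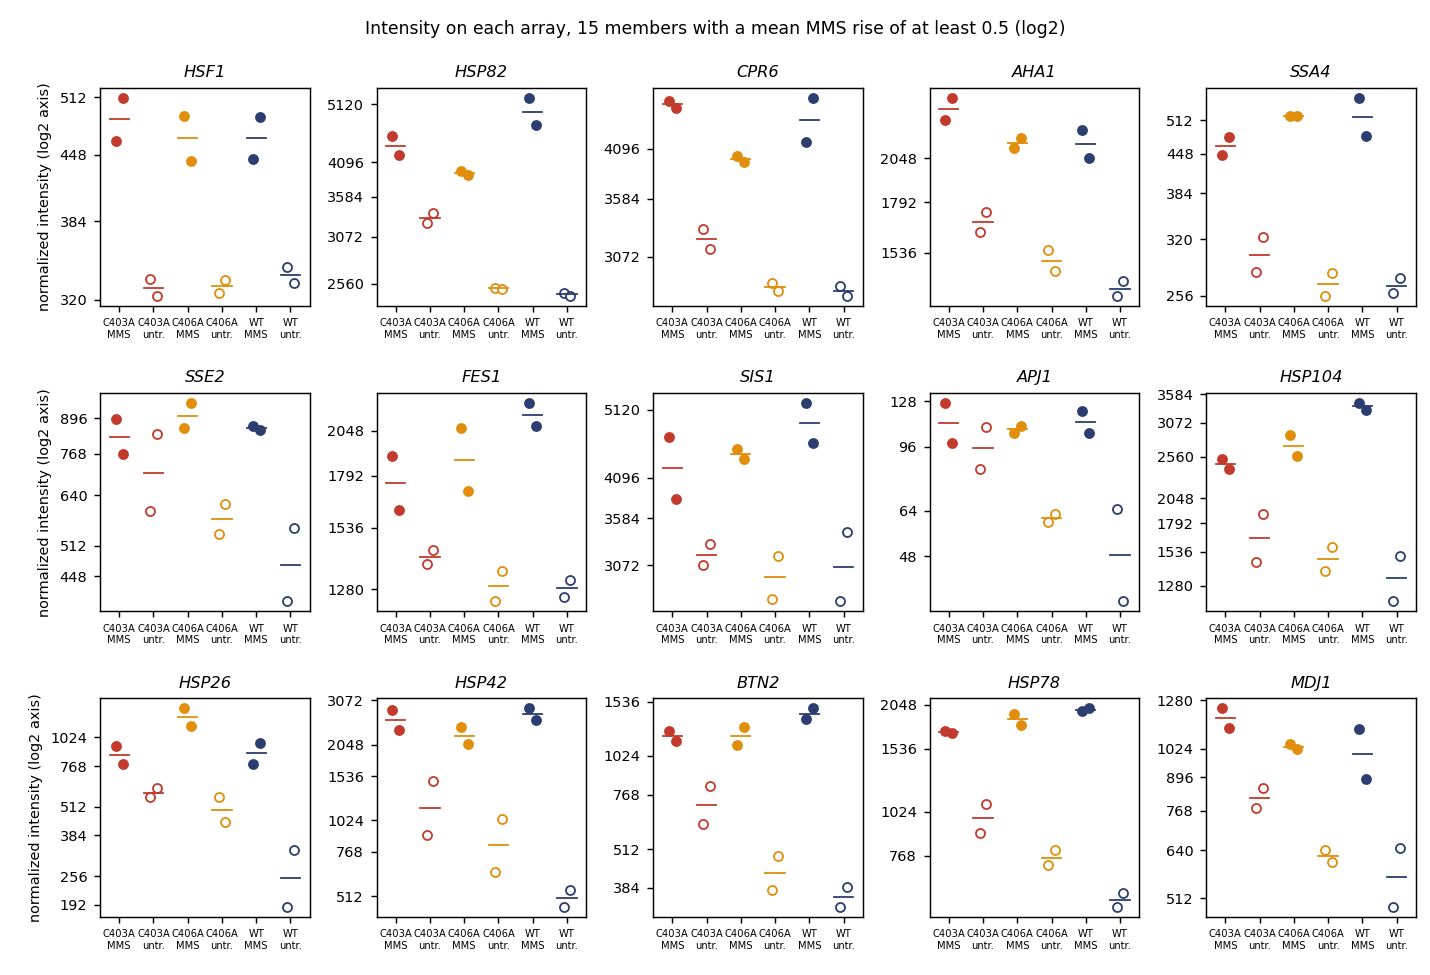
Normalized intensity (log2 axis) on each of the 12 arrays for the 15 members whose mean rise with MMS was at least 0.5, with filled points for MMS, open points for untreated cells and a line at each group's geometric mean. Within each strain the MMS points lie above the untreated points, except for APJ1 in C403A and SSE2 in C403A, and the open points of C403A often lie above those of wild type, as for HSP82, HSP26, HSP42, BTN2 and HSP78.

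Of the HSP90 pair, HSP82 is the heat-inducible copy and HSC82 the constitutive one. HSP82 read 4525 and 4217 with MMS against 3243 and 3365 untreated in C403A, 3956 and 3893 with MMS against 2519 and 2513 untreated in C406A, and 5257 and 4722 with MMS against 2472 and 2444 untreated in wild type. Its MMS arrays were above the untreated ones in each strain, and the untreated C403A arrays stood above those of the other strains. The changes were 0.40 ± 0.06 in C403A, 0.64 ± 0.06 in C406A and 1.02 ± 0.06 in wild type (adjusted p = 0.00241, 0.000159 and 7.79e-06, limma), the wild-type one a 2.03-fold rise. HSC82 ran from 5505 to 7484 over all arrays and changed by 0.09 ± 0.06 in C403A, 0.23 ± 0.06 in C406A and 0.23 ± 0.06 in wild type. It was called in C406A and wild type, but its wild-type value was -0.08 with arrays scaled to the hybridization controls and its mean response -0.03 with arrays scaled to the same median.

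Of the 8 HSP90 cofactors tested, 6 rose and 1 fell in the mean response. CPR6, a peptidyl-prolyl isomerase bound to HSP90, read 4654 and 4566 with MMS against 3307 and 3138 untreated in C403A, 4017 and 3950 with MMS against 2861 and 2804 untreated in C406A, and 4172 and 4690 with MMS against 2839 and 2767 untreated in wild type. AHA1, which stimulates the ATPase of HSP90, read 2304 and 2465 with MMS against 1635 and 1740 untreated in C403A, 2112 and 2177 with MMS against 1550 and 1452 untreated in C406A, and 2235 and 2051 with MMS against 1347 and 1409 untreated in wild type. In both genes every MMS array lay above every untreated array. CPR6 changed by 0.52 ± 0.06 in C403A, 0.49 ± 0.06 in C406A and 0.66 ± 0.06 in wild type, and AHA1 by 0.50 ± 0.07 in C403A, 0.52 ± 0.07 in C406A and 0.64 ± 0.07 in wild type, with adjusted p of at most 0.00142 in each strain (limma). HCH1, a relative of AHA1, read 2914 and 2877 with MMS against 2295 and 2342 untreated in C403A, 2458 and 2233 with MMS against 1991 and 2026 untreated in C406A, and 2583 and 2366 with MMS against 1958 and 1909 untreated in wild type. The groups did not overlap within any strain, and the changes were 0.32 ± 0.06 in C403A, 0.22 ± 0.06 in C406A and 0.36 ± 0.06 in wild type (adjusted p = 0.00847, 0.0281 and 0.00208, limma). STI1, the protein that links HSP70 to HSP90, read 4507 and 4507 with MMS against 4179 and 3867 untreated in C403A, 4521 and 4279 with MMS against 3536 and 3578 untreated in C406A, and 5221 and 5213 with MMS against 3812 and 3633 untreated in wild type. Wild type with MMS was the highest group, and the change was called in C406A (0.31) and wild type (0.49) but not in C403A (0.17 ± 0.05, adjusted p = 0.0597). CDC37, the cofactor for protein kinases, rose in each strain by 0.30 ± 0.07 in C403A, 0.32 ± 0.07 in C406A and 0.46 ± 0.07 in wild type. The 2 cofactors that did not join were CPR7, a paralogue of CPR6 with no call (0.07 ± 0.07, adjusted p = 0.46 in the mean response, limma), and CNS1.

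CNS1, an essential partner of HSP90 and HSP70, was the 1 member called lower within a strain. It read 934 and 1015 with MMS against 1081 and 934 untreated in C403A, 829 and 786 with MMS against 1094 and 1024 untreated in C406A, and 744 and 799 with MMS against 1152 and 1070 untreated in wild type. The MMS arrays lay below the untreated ones in C406A and wild type, while those of C403A touched. CNS1 changed by -0.39 ± 0.09 in C406A and -0.53 ± 0.09 in wild type (adjusted p = 0.0117 and 0.00172) and did not pass in C403A (-0.05 ± 0.09, adjusted p = 0.799, limma). Without normalization its change was 0.06 in C406A and 0.01 in the mean response, a reversal of sign. SBA1, the yeast p23, rose only in the mean response (0.23 ± 0.08, adjusted p = 0.0363, limma), and that call was lost without any of 8 arrays taken singly (adjusted p = 0.0592 to 0.0964).

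Among the cytosolic HSP70 genes, SSA1 and SSA2 are the abundant constitutive copies and SSA3 and SSA4 the inducible ones. SSA4 read 446 and 479.8 with MMS against 281 and 323 untreated in C403A, 520 and 519.8 with MMS against 256 and 281 untreated in C406A, and 559 and 482 with MMS against 259 and 274 untreated in wild type. Every MMS array stood above every untreated array, and the changes were 0.62 ± 0.11 in C403A, 0.96 ± 0.11 in C406A and 0.96 ± 0.11 in wild type (adjusted p = 0.00498, 0.000336 and 0.000181, limma). SSA1 read 22444 and 21068 with MMS against 19968 and 21068 untreated in C403A, 17478 and 19148 with MMS against 16446 and 17478 untreated in C406A, and 21068 and 22444 with MMS against 17478 and 16948 untreated in wild type. Its probe set ranked between 2 and 8 from the top of 9275 on each array, where quantile normalization gives a value by rank alone. The SSA1 change was called in wild type (0.34 ± 0.06, adjusted p = 0.00206, limma) and not in C403A (0.08) or C406A (0.11). SSA2 read 9361 and 9361 with MMS against 8625 and 9098 untreated in C403A, 9082 and 7661 with MMS against 8129 and 8012 untreated in C406A, and 11566 and 11034 with MMS against 9826 and 9734 untreated in wild type. Its wild-type rise (0.21 ± 0.07, adjusted p = 0.0442, limma) was lost without any 1 of the 4 wild-type arrays (adjusted p = 0.0773 to 0.2) and became -0.08 on the scale of the hybridization controls. SSA3 ran from 40.5 to 159 and was called in no comparison; its arrays within a group lay up to 1.68 apart on the log2 scale.

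The exchange factors split by copy. SSE1, the constitutive HSP110, ran from 4894 to 5495 and did not pass in any strain (-0.04 ± 0.03, adjusted p = 0.291 in the mean response, limma). SSE2, its stress-inducible paralogue, read 893 and 768 with MMS against 597 and 836 untreated in C403A, 858 and 959 with MMS against 539 and 616 untreated in C406A, and 866 and 851 with MMS against 402 and 554 untreated in wild type. Untreated wild type held the lowest array, and the 2 C403A groups overlapped. The SSE2 changes were 0.23 ± 0.18 in C403A, 0.66 ± 0.18 in C406A and 0.86 ± 0.18 in wild type, called in C406A and wild type (adjusted p = 0.0275 and 0.00545, limma). FES1, the cytosolic exchange factor of another fold, read 1901 and 1620 with MMS against 1381 and 1437 untreated in C403A, 2064 and 1711 with MMS against 1236 and 1350 untreated in C406A, and 2222 and 2074 with MMS against 1251 and 1318 untreated in wild type. Its groups did not overlap within a strain, and it changed by 0.32 ± 0.10 in C403A, 0.54 ± 0.10 in C406A and 0.74 ± 0.10 in wild type, a call in C406A and wild type but not in C403A (adjusted p = 0.067, limma).

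The ribosome-bound chaperones, which meet the nascent chain, did not rise. The probe set shared by SSB1 and SSB2, the ribosomal HSP70 pair, ran from 8047 to 9004 on all arrays and changed by -0.05 ± 0.03 in the mean response (adjusted p = 0.222, limma over all 7845 probe sets fitted). SSZ1 and ZUO1 form the complex that recruits J protein activity to the ribosome. SSZ1 fell in the mean response (-0.16 ± 0.05, adjusted p = 0.0259, limma), a call lost without any of 7 arrays taken singly (adjusted p = 0.0504 to 0.068) and a sign that turned to 0.07 without normalization. ZUO1 did not pass (-0.07 ± 0.03, adjusted p = 0.0686), but with arrays scaled to the same median it was -0.29 (adjusted p = 0.002) and on the hybridization controls -0.25 (adjusted p = 0.014, limma). Both genes had a value above 0 without normalization, 0.06 for ZUO1.

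Of 4 J proteins, 3 rose in the mean response. SIS1, the essential J protein of the cytosol and nucleus, read 4676 and 3820 with MMS against 3073 and 3294 untreated in C403A, 4507 and 4361 with MMS against 2752 and 3169 untreated in C406A, and 5237 and 4592 with MMS against 2730 and 3425 untreated in wild type. No untreated array reached an MMS array of its strain, and the changes were 0.41 ± 0.13 in C403A, 0.59 ± 0.13 in C406A and 0.68 ± 0.13 in wild type (adjusted p = 0.0583, 0.00996 and 0.00305, limma). APJ1, a J protein of the YDJ1 class, read 127 and 98.2 with MMS against 83.6 and 109 untreated in C403A, 105 and 109.8 with MMS against 59.6 and 62.9 untreated in C406A, and 121 and 105 with MMS against 64.6 and 36.1 untreated in wild type. The untreated wild-type arrays lay far apart, with the lower one near the floor, and the 2 C403A groups overlapped. APJ1 changed by 0.23 ± 0.26 in C403A, 0.81 ± 0.26 in C406A and 1.22 ± 0.26 in wild type, called in C406A and wild type (adjusted p = 0.0466 and 0.00545, limma). Without wild type untreated array 2 the wild-type change was 0.80. YDJ1, the most abundant J protein of the cytosol, read 5439 and 5546 with MMS against 5193 and 4963 untreated in C403A, 5830 and 5660 with MMS against 5322 and 5221 untreated in C406A, and 6469 and 6428 with MMS against 5943 and 5648 untreated in wild type. Its wild-type rise was small (0.15 ± 0.04, adjusted p = 0.0241, limma) and turned to -0.05 with arrays scaled to the same median and to -0.13 on the scale of the hybridization controls. CAJ1 was not called (0.07 ± 0.05, adjusted p = 0.341, limma).

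The 4 genes that handle aggregated proteins held the largest changes of the cytosolic members, and all 4 rose in the mean response, by a median of 1.31. HSP42, the small heat shock protein that gathers misfolded proteins into cytosolic deposits, read 2804 and 2348 with MMS against 896 and 1462 untreated in C403A, 2409 and 2056 with MMS against 639 and 1038 untreated in C406A, and 2856 and 2575 with MMS against 465 and 542 untreated in wild type. All MMS arrays lay above all untreated arrays, and on average the untreated level was highest in C403A and lowest in wild type, with the arrays of the mutants overlapping. The changes were 1.17 ± 0.25 in C403A, 1.45 ± 0.25 in C406A and 2.43 ± 0.25 in wild type (adjusted p = 0.0145, 0.00336 and 0.000132, limma), in wild type a 5.4-fold rise. BTN2, a sorting factor for misfolded proteins, read 1233 and 1141 with MMS against 615 and 818 untreated in C403A, 1114 and 1272 with MMS against 376 and 488 untreated in C406A, and 1347 and 1460 with MMS against 334 and 386 untreated in wild type. The untreated averages ran in the same order, and MMS and untreated arrays did not overlap. BTN2 changed by 0.74 ± 0.16 in C403A, 1.47 ± 0.16 in C406A and 1.97 ± 0.16 in wild type (adjusted p = 0.0133, 0.000288 and 3.71e-05, limma).

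HSP26, the other cytosolic small heat shock protein, read 939.5 and 787 with MMS against 563 and 614 untreated in C403A, 1368 and 1145 with MMS against 566 and 438 untreated in C406A, and 784 and 969 with MMS against 189 and 333 untreated in wild type. C406A with MMS was its highest group and untreated wild type its lowest. HSP26 changed by 0.55 ± 0.24 in C403A, 1.33 ± 0.24 in C406A and 1.80 ± 0.24 in wild type, called in C406A and wild type (adjusted p = 0.00411 and 0.000503) but not in C403A (adjusted p = 0.166, limma). HSP104, the hexameric disaggregase, read 2534 and 2395 with MMS against 1452 and 1877 untreated in C403A, 2873 and 2575 with MMS against 1386 and 1573 untreated in C406A, and 3420 and 3294 with MMS against 1176 and 1504 untreated in wild type. Wild type had both its highest MMS arrays and its lowest untreated array. The HSP104 changes were 0.58 ± 0.14 in C403A, 0.88 ± 0.14 in C406A and 1.34 ± 0.14 in wild type (adjusted p = 0.0216, 0.00191 and 0.000132, limma).

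HSP30, a plasma membrane protein that restrains the proton pump Pma1, could not be placed. It ran from 321 to 1864, its 2 arrays of a group lay 0.93 to 1.66 apart on the log2 scale, and no comparison called it (adjusted p = 0.818 in the mean response, limma).

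Among the 6 mitochondrial chaperones, 5 rose in the mean response. HSP78, the mitochondrial relative of HSP104, read 1721 and 1703 with MMS against 894 and 1076 untreated in C403A, 1932 and 1799 with MMS against 723 and 796 untreated in C406A, and 1958 and 1998 with MMS against 554 and 605 untreated in wild type. Its groups were well apart in each strain, and untreated C403A lay above untreated C406A and untreated wild type. HSP78 changed by 0.80 ± 0.09 in C403A, 1.30 ± 0.09 in C406A and 1.77 ± 0.09 in wild type (adjusted p = 0.000722, 4.74e-05 and 4.63e-06, limma). MDJ1, the J protein of the matrix, read 1234 and 1124 with MMS against 778 and 854 untreated in C403A, 1045 and 1021 with MMS against 641 and 606 untreated in C406A, and 1119 and 889.6 with MMS against 493 and 646 untreated in wild type. Its MMS arrays were above its untreated arrays in each strain, and it changed by 0.53 ± 0.14 in C403A, 0.73 ± 0.14 in C406A and 0.82 ± 0.14 in wild type (adjusted p = 0.0296, 0.005 and 0.00171, limma). HSP60, the chaperonin of the matrix, read 7334 and 7334 with MMS against 6965 and 7317 untreated in C403A, 6829 and 6257 with MMS against 6253 and 6174 untreated in C406A, and 7263 and 7484 with MMS against 6334 and 6253 untreated in wild type. Its wild-type rise (0.23 ± 0.05, adjusted p = 0.00632, limma) became 0.00 with arrays scaled to the same median and -0.08 on the scale of the hybridization controls. HSP10, the lid of HSP60, and SSC1, the matrix HSP70, were called in the mean response alone (0.25 and 0.22, adjusted p = 0.0357 and 0.0158, limma), and MGE1, the exchange factor of SSC1, was not (0.08).

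Changes in the CCT ring were small. In the mean response 5 of its 8 subunit genes rose, by 0.14 to 0.29, and TCP1, CCT2 and CCT6 did not pass. CCT8 read 2380 and 2311 with MMS against 1961 and 1831 untreated in C403A, 2213 and 2099 with MMS against 1872 and 1944 untreated in C406A, and 2620 and 2519 with MMS against 2107 and 2005 untreated in wild type. Its MMS arrays were above the untreated ones in each strain, with changes of 0.31 ± 0.06 in C403A, 0.18 ± 0.06 in C406A and 0.32 ± 0.06 in wild type, called in C403A and wild type. CCT3 read 1844 and 1853 with MMS against 1656 and 1450 untreated in C403A, 1691 and 1491 with MMS against 1602 and 1681 untreated in C406A, and 2077 and 2093 with MMS against 1752 and 1772 untreated in wild type. The C406A groups overlapped, and the change was called in wild type alone (0.24 ± 0.08, adjusted p = 0.0372, limma). CCT7 read 1009 and 931 with MMS against 816 and 839.8 untreated in C403A, 1097 and 1091 with MMS against 1006 and 1000 untreated in C406A, and 1180 and 1186 with MMS against 925 and 1075 untreated in wild type. It too was called in wild type alone (0.25 ± 0.08, adjusted p = 0.0348, limma), with untreated C403A the lowest group.

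By strain, 13 members rose in all 3 strains, 7 in C406A and wild type alone, 2 in C403A and wild type alone, and 6 in wild type alone; CNS1 fell in C406A and wild type, and 14 were called in no strain. These patterns were not counted over all genes, of which 15.6% were called in C403A, 24% in C406A and 33% in wild type. A call in one strain and none in another is not by itself a difference, which was tested separately. Leaving out 1 array at a time, 6 of the 15 calls in C403A held, 13 of 21 in C406A and 23 of 29 in wild type. The calls lost in C403A were those of HCH1, CDC37, HSP104, HSP42, BTN2, MDJ1, CCT4, CCT5 and CCT8, and all 9 were lost without C403A MMS array 1 (adjusted p = 0.0579 to 0.16, limma). In C406A the calls lost were those of HSC82, HCH1, CNS1, CDC37, SSE2, SIS1, APJ1 and CCT5, all 8 without C406A untreated array 1 (adjusted p = 0.0755 to 0.163, limma). In wild type they were those of HSC82, SSA2, YDJ1, CCT3, CCT4 and CCT7, all 6 without wild type MMS array 1 (adjusted p = 0.0948 to 0.2, limma). Some of the same calls were also lost without other single arrays.

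Among the 15 larger responders the change was largest in wild type for 14 and smallest in C403A for 13, and 13 of the 15 (86.7%) ran in the order C403A below C406A below wild type. Of the 392 genes on the array called higher by the same measure, 265 had their largest change in wild type, 240 their smallest in C403A, and 187 (47.7%) had the full order. HSF1 was the exception at the top, with its smallest change in wild type, and CPR6 had a slightly smaller change in C406A than in C403A. These 3 responses rest on different arrays.

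The difference of the MMS response between C403A and wild type was tested directly. It passed for 3 members, all with the smaller rise in C403A, where 0.317% of all genes had a called positive difference and 0.671% a called negative one. For HSP78 the difference, C403A minus wild type, was -0.97 (95% interval -1.27 to -0.67, adjusted p = 0.0193, limma). For HSP82 it was -0.62 (95% interval -0.80 to -0.43, adjusted p = 0.0193), and for BTN2 it was -1.22 (95% interval -1.73 to -0.72, adjusted p = 0.0381, limma). HSP42 and HSP26 had differences as large but more variable, of -1.27 (95% interval -2.07 to -0.47) and -1.25 (95% interval -2.02 to -0.48), which did not pass (adjusted p = 0.125 and 0.113, limma). Over the 15 larger responders 14 had the smaller response in C403A, where 54.2% of all genes had a negative difference. The median difference of the 15 was -0.62 against -0.03 for all genes. Without the pair of arrays of highest ribosomal RNA signal, which are 1 untreated array of each strain, the median was -0.43 and 14 of the 15 kept that sign.

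None of the 3 calls held without each array in turn. HSP82 was lost without C403A MMS array 2 (-0.57), wild type MMS array 1 (-0.54), wild type untreated array 1 (-0.62) or wild type untreated array 2 (-0.61), at adjusted p of 0.0524 to 0.0696 (limma). HSP78 was lost without either C403A array with MMS (-0.98 without array 1 and -0.96 without array 2), wild type MMS array 1 (-0.99) or wild type untreated array 1 (-0.91), at adjusted p of 0.0522 to 0.0916. For BTN2 the call was lost without any array of either strain but C403A untreated array 1, with differences of -1.33 to -1.02 and adjusted p of 0.0678 to 0.132. Without both arrays of high ribosomal RNA signal the differences were -0.58, -0.90 and -1.13 for HSP82, HSP78 and BTN2 (adjusted p = 0.0947, 0.0567 and 0.111, limma).

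**Figure D3:**
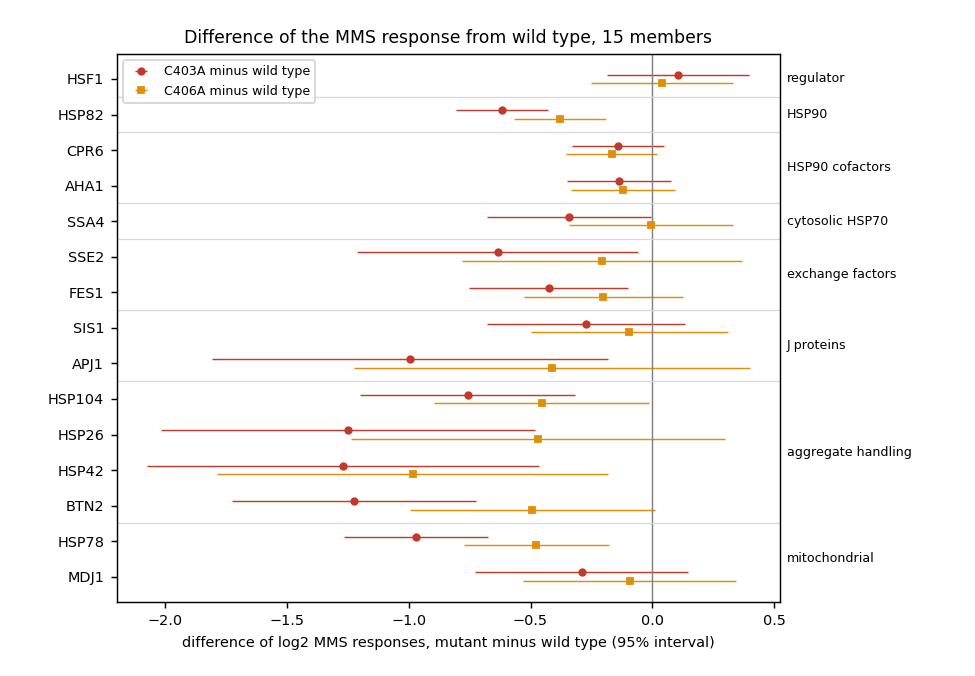
Difference of the log2 MMS response, C403A minus wild type (circles) and C406A minus wild type (squares), for the 15 larger responders, with 95% intervals. In C403A 14 of the 15 lie left of 0, as do 14 in C406A, and HSF1 lies right of 0 in both. Of all genes, 54.2% had a negative difference in C403A and 54.8% in C406A.

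Between C406A and wild type no difference of response passed, for any member or any gene (0% of all genes called, limma), and 7 of the 43 members had an unadjusted p below 0.05, against 451 of all 5368 genes. The differences were again negative for 14 of the 15 larger responders, where 54.8% of all genes had a negative difference. The median of the 15 was -0.21 against -0.02 for all genes. HSP42 had -0.98 (95% interval -1.79 to -0.18), HSP78 -0.48 (-0.77 to -0.18) and HSP82 -0.38 (-0.57 to -0.19). For HSF1 and SSA4 the intervals were -0.25 to 0.33 and -0.34 to 0.33. Both differences are set against the same wild-type arrays, so they are not independent of each other. On the scale of the hybridization controls the median of all genes in this difference was 0.34 and that of the 43 members 0.26, so the sign for the smaller differences rests on the scaling.

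In untreated cells the question was whether the mutants differed in chaperone level before any damage. Untreated C403A had 11 members called higher and 2 lower than untreated wild type, where 9.17% of all genes were called higher and 4.97% lower. Of the 4 genes for aggregate handling 3 were called. HSP26 read 563 and 614 in untreated C403A against 189 and 333 in untreated wild type, HSP42 896 and 1462 against 465 and 542, and BTN2 615 and 818 against 334 and 386. Both C403A arrays lay above both wild-type arrays in each. The differences were 1.23 ± 0.24, adjusted p = 0.0104 for HSP26, 1.19 ± 0.25, adjusted p = 0.0149 for HSP42 and 0.98 ± 0.16, adjusted p = 0.00423 for BTN2 (limma). HSP104, the fourth, read 1452 and 1877 in untreated C403A against 1176 and 1504 in untreated wild type, with overlapping arrays, and was not called (0.31 ± 0.14, adjusted p = 0.164, limma). HSP78 was 0.76 ± 0.09 higher, HSP82 0.43 ± 0.06 and MDJ1 0.53 ± 0.14 (adjusted p = 0.00135, 0.00243 and 0.0329, limma). APJ1 (0.98), AHA1 (0.29), HCH1 (0.26), SSA1 (0.25) and HSP60 (0.18, but -0.08 on the scale of the hybridization controls) were also called higher, and YDJ1 (-0.19) and CCT7 (-0.27) lower. The APJ1 value was 0.56 without wild type untreated array 2 (adjusted p = 0.153), 0.37 without the 2 arrays of highest ribosomal RNA signal (adjusted p = 0.376) and 0.52 on the hybridization controls (adjusted p = 0.19, limma). HSF1 itself did not pass (-0.04 ± 0.09, 95% interval -0.25 to 0.16).

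Of the 15 larger responders 14 were above wild type in untreated C403A, by a median of 0.43, where 55% of all genes were above and their median was 0.03. Both C403A arrays lay above both wild-type arrays in 12 of the 15, which holds for 32.2% of all genes. The array with the high ribosomal RNA signal was the higher of its pair for 13 of the 15 in untreated C403A (51.4% of all genes) and for 11 of the 15 in untreated wild type (43%). Left with the other 2 arrays alone, 14 of the 15 were still above wild type in C403A, with a median of 0.37 against 0.01 for all genes. Without that pair fewer members were called, and so were fewer of all genes. The same held without C403A untreated array 2, wild type untreated array 1 or wild type untreated array 2. HSP82, BTN2 and HSP78 were the 3 called without any 1 array. HSP42 was lost without C403A untreated array 2 (0.84, adjusted p = 0.0858), wild type untreated array 1 (1.08, adjusted p = 0.0799) or wild type untreated array 2 (1.30, adjusted p = 0.0507, limma), and HSP26 without C403A untreated array 2 (1.17, adjusted p = 0.0605, limma). With arrays scaled to the same median 10 members were called higher and 0 lower, where 12.6% of all genes were called. On the hybridization controls 3 were called (6.2% of all genes), on the deposited scale 4 (1.8%), and with the 2 groups fitted alone 0 (0.0931%). The untreated arrays also enter the differences of response, so a high untreated level and a small response in C403A are not separate observations.

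In untreated C406A no member passed against untreated wild type, where 2.7% of all genes did. An unadjusted p below 0.05 was found for 7 of the 43 members, against 923 of all 5368 genes. HSP78 differed by 0.39 ± 0.09 (95% interval 0.18 to 0.60, adjusted p = 0.0625) and HSP26 by 0.99 ± 0.24 (95% interval 0.45 to 1.53, adjusted p = 0.0673, limma). SSA2 had -0.28 ± 0.07 (adjusted p = 0.0701). Of the 15 larger responders 13 were above wild type, where 50.5% of all genes were. The median difference of the 15 was 0.14 against 0.00 for all genes. The mutants differed from each other without MMS in 1 member, HSP82, higher in C403A by 0.39 ± 0.06 (adjusted p = 0.034, limma), where 0.652% of all genes were called either way. That call was lost without C403A untreated array 2 (0.37, adjusted p = 0.0772) or C406A untreated array 1 (0.40, adjusted p = 0.137) or array 2 (0.39, adjusted p = 0.196).

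With MMS the median difference of the larger responders from wild type was nearer 0 than without it. Among the 15 larger responders 4 were above wild type in C403A with MMS, where 52% of all genes were. Their median was -0.08 for the 15, against 0.01 for all genes. In C406A with MMS 5 of the 15 were above wild type, where 45.9% of all genes were. The median there was -0.09 for the 15, against -0.02 for all genes. In C403A none of the 15 was called in the main fit (limma), and 4 had an unadjusted p below 0.05, against 1522 of all 5368 genes. HSP42 differed by -0.08 (95% interval -0.65 to 0.49), BTN2 by -0.24 (-0.60 to 0.11), HSP78 by -0.21 (-0.42 to 0.00) and HSP26 by -0.02 (-0.56 to 0.52). HSP104 was the farthest below, at -0.45 (-0.76 to -0.14, adjusted p = 0.0627, limma). The intervals of HSP42 and HSP26 are the widest of these. HSP104 was called lower with the compared groups alone (adjusted p = 0.0442) and with array weights (adjusted p = 0.0324, limma). With array weights HSP82 was called lower too. On the hybridization controls, where the median of all genes was -0.27, HSP104 (-0.68), FES1 (-0.53) and SIS1 (-0.47) were called lower.

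Against wild type with MMS, C403A with MMS had 2 members called higher and 4 lower, where 7.47% of all genes were called higher and 6.09% lower. HCH1 (0.23 ± 0.06, adjusted p = 0.0379) and CNS1 (0.34 ± 0.09, adjusted p = 0.0337) were higher. Lower were YDJ1 (-0.23 ± 0.04, adjusted p = 0.00952), CCT7 (-0.29 ± 0.08, adjusted p = 0.0368), SSA2 (-0.27 ± 0.07, adjusted p = 0.0304) and STI1 (-0.21 ± 0.05, adjusted p = 0.0266, limma). C406A with MMS had 0 members called higher and 6 lower, where 2.72% of all genes were called higher and 1.81% lower. These were SSA2 (-0.44 ± 0.07, adjusted p = 0.00903), HSP82 (-0.34 ± 0.06, adjusted p = 0.0145), CCT3 (-0.39 ± 0.08, adjusted p = 0.0238), STI1 (-0.25 ± 0.05, adjusted p = 0.0312), CCT8 (-0.25 ± 0.06, adjusted p = 0.0424) and SSA1 (-0.25 ± 0.06, adjusted p = 0.0456, limma). None of the calls held without each array in turn. In C403A fewer members were called without any 1 array of either group, and so were fewer of all genes. In C406A the same held without C406A MMS array 2, wild type MMS array 1 or wild type MMS array 2. Without C406A MMS array 1 the calls in C406A were not fewer, of members or of all genes. Scaling moved the split as well, to 2 higher and 0 lower in C403A with equal medians (12% of all genes called). On the hybridization controls it was 0 higher and 7 lower (9.6%). HCH1 turned to -0.03 there. C403A with MMS had HCH1 (0.31 ± 0.06, adjusted p = 0.0246) and SSA1 (0.25 ± 0.06, adjusted p = 0.038, limma) above C406A with MMS, where 3.52% of all genes were called higher and 3.17% lower. On the hybridization controls HCH1 turned to -0.06 and SSA1 to -0.04, with 0 members higher and 5 lower (14.1% of all genes called).

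Chaperone genes outside the 45 were called about as often as all genes. Of 36 further genes tested 10 rose and 6 fell in the mean response, against 31 and 2 of the 43. That is 44.4% of the 36 called, where 47.4% of all genes were, 25.2% higher and 22.2% lower. The median change of the 36 was 0.02, against 0.00 for all genes. All 5 of the other stress chaperones in that list rose, while none of 6 prefoldin subunits did. OPI10 (1.28), HSP12, a small membrane-associated stress protein (1.25), and HSP31, a methylglyoxalase of the DJ-1 family (0.98), rose most. The largest falls were in MDJ2, a mitochondrial J protein (-0.74, near the floor), JJJ3, a J protein of diphthamide synthesis (-0.44), and PPT1, the phosphatase that acts on HSP90 (-0.28). The call of PPT1 was lost with the mean of its probe sets (-0.12, adjusted p = 0.054), on the hybridization controls (-0.24, adjusted p = 0.122) and without normalization (0.07, adjusted p = 0.698), and that of JJJ3 without normalization (-0.10, adjusted p = 0.607, limma). After quantile normalization the rises had adjusted p of at most 3.16e-06 and the falls of at most 0.00309 (limma).

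Near-identical copies limit what their probe sets can say. A probe set shared by SSA1 and SSA2 changed with MMS by 0.09 ± 0.05 in C403A, 0.22 ± 0.05 in C406A and 0.36 ± 0.05 in wild type (adjusted p = 0.278, 0.0123 and 0.000777, limma over 7845 probe sets). Another was the brightest on every array, so quantile normalization gave it the same value, 27810, on all 12 and it holds no information here. The probe set shared by HSP82 and HSC82 changed by 0.01 ± 0.06 in C403A, 0.04 ± 0.06 in C406A and 0.26 ± 0.06 in wild type (adjusted p = 0.984, 0.725 and 0.013, limma). This was less than the HSP82 probe set in each strain. Nor was it called where HSP82 was between strains. Untreated C403A differed by 0.07 from wild type and 0.12 from C406A (adjusted p = 0.461 and 0.38, limma). C406A with MMS differed from wild type by -0.26 (adjusted p = 0.0565), and the response of C403A by -0.25 (adjusted p = 0.242, limma). Cross-hybridization between copies was not tested.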

How the data were processed

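The files hold one-colour Affymetrix signal intensity for 9335 probe sets on 12 arrays, on a linear scale as deposited; 8.95% of values lay below 0, and the software and any scaling that the authors used are not given in the sources used here. Array medians differed by 1.686 times, so the arrays were quantile-normalized over all but the 60 control probe sets, floored at the 20th percentile (34.46) and taken to log2. A gene is its brightest probe set with that single symbol in the platform annotation, above the floor on at least 2 arrays (288 genes dropped, 5368 tested). Arrays of a group are numbered in the order listed, since the labels number none. A linear model with 1 mean per group was fitted by limma 3.58.1 (R 4.3.3) over the 12 arrays, which left 6 residual degrees of freedom, with an intensity trend in eBayes and no block; a gene was called at a Benjamini-Hochberg adjusted p under 0.05 over all genes tested. The scripts were tested on simulated data.

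Members, roles and lists were chosen with earlier results of these data known. Array values are given for members called in the mean MMS response with a change of at least 0.5, and for members called in any comparison of a mutant; other chaperone genes are named up to 3 each way by size of the mean response among those called. Other genes named were chosen after their values were seen. Alternatives were scaling by the median or by 9 hybridization control probe sets, no scaling, other floors and filters, averaging probe sets of 1 gene, eBayes without the trend, weighting arrays, fitting only the groups compared, and omitting each array. Added after seeing the data were omitting both arrays with high ribosomal RNA signal and a fit of all probe sets for those shared by several genes. Promoter sequences were not analysed here. Plots used matplotlib 3.10.9 (Python 3.11.15).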

Additional observations from a re-analysis of the deposited data

Results flagged for a closer look

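For 3 members the MMS response of C403A differed from that of wild type by a direct test of the difference. HSP82 had a difference of -0.616 (adjusted p = 0.0193), HSP78 of -0.97 (adjusted p = 0.0193) and BTN2 of -1.224 (adjusted p = 0.0381, limma). In each gene the untreated level was higher in C403A than in wild type, by 0.43, 0.76 and 0.98. The differences with MMS were -0.19, -0.21 and -0.24, none of them called in the main fit. All 3 fall below the threshold without both arrays of high ribosomal RNA signal (-0.58, -0.90 and -1.13 for HSP82, HSP78 and BTN2). What sets the difference was not tested. Outside the 45 genes, the same test gave -1.002 for OPI10 and -0.576 for CUR1 (adjusted p = 0.0459 and 0.044, limma).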

How the results depend on the processing

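Of the calls, 19 of 33 in the mean MMS response, 11 of 21 in C406A, 13 of 29 in wild type and 0 of 15 in C403A held under every setting in which the gene was tested, and so did 0 of those between strains. APJ1 was not tested with the floor at the 40th percentile. Shares of all genes called follow each number in brackets. Scaled to the hybridization controls, the number of members called was 2 for the C403A response (3.92%), 15 for wild type (15.2%) and 21 for the mean (29.4%). It was 3 for C403A against wild type untreated (6.2%) and 5 for C403A against C406A with MMS (14.1%). It was 0 for C406A against wild type with MMS (0.854%), C403A against C406A untreated (0.0742%) and the difference of response of C403A (0.0371%). As deposited it was 4 for C403A against wild type untreated (1.8%). It was then 0 for C403A (1.45%) and C406A (0.688%) against wild type with MMS. It was also 0 for C403A against C406A untreated (0.242%) and with MMS (0.52%), and for the difference of response of C403A (0.0372%). With equal medians it was 2 for C403A (12%) and 0 for C406A (2.53%) against wild type with MMS, and 1 for C403A against C406A with MMS (5.32%). With the compared groups alone it was 1 for the C403A response (1.97%) and 1 for C403A against wild type with MMS (3.91%). It was then 0 for C403A against wild type untreated (0.0931%) and C406A against wild type with MMS (0%). It was also 0 for C403A against C406A untreated (0%) and with MMS (0.0559%), and for the difference of response of C403A (0.0186%). With no trend it was 1 for C403A (12.3%) and 2 for C406A (2.61%) against wild type with MMS. It was then 0 for C403A against C406A untreated (0.373%) and with MMS (4.42%). With no filter it was 1 for C403A against C406A with MMS (5.59%). With array weights it was 6 for C403A (7.92%) and 3 for C406A (4.01%) against wild type untreated and 0 for C403A against C406A untreated (0.205%).

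Without the 2 arrays of highest ribosomal RNA signal, an alternative chosen after seeing the data, it was 2 for either mutant against wild type untreated, 0 for C403A against C406A untreated, 1 for that pair with MMS and 0 for the difference of response of C403A. Leaving out each array in turn, the number called ran from 6 to 14 for the C403A response, 13 to 17 for C406A, 23 to 25 for wild type and 29 to 33 for the mean. It ran from 3 to 16 for C403A and 0 to 1 for C406A against wild type untreated, 0 to 2 for C403A and 0 to 6 for C406A against wild type with MMS, 0 to 3 and 0 to 4 for C403A against C406A untreated and with MMS, and 0 to 4 for the difference of response of C403A; for C406A that difference had 0 throughout, with 7 members at an unadjusted p under 0.05 (limma).

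The losses of calls on leaving out arrays were not confined to chaperone genes. In the response of each strain, fewer members and fewer of all genes were called without any 1 of its arrays. Without the 2 arrays of highest ribosomal RNA signal, both fell for C403A against wild type untreated and for the difference of response of C403A. For C406A against wild type untreated and C403A against C406A with MMS, members and all genes did not always move together. Some called changes turned sign. On the hybridization controls, the wild-type response was -0.080 for HSC82, -0.076 for SSA2, -0.128 for YDJ1 and -0.082 for HSP60, the mean response -0.064 for SSA2, -0.018 for YDJ1 and -0.060 for HSP60, HSP60 in C403A against wild type untreated -0.082, HCH1 with MMS -0.026 in C403A against wild type and -0.057 against C406A, and SSA1 -0.040 there. With equal medians, the wild-type response was -0.048 for YDJ1 and -0.002 for HSP60, and the mean response -0.025 for HSC82, -0.096 for SSA2, -0.051 for YDJ1 and -0.092 for HSP60. As deposited, CNS1 was 0.061 in the C406A response and 0.010 in the mean response, SSZ1 0.069 in the mean and PPT1 0.069 in the mean. The cause was not tested. The 15 larger responders kept their call in the mean response under each setting that tested them. All arrays were scanned on 1 day, so the planned block for scan date was not run. No paired analysis was possible because the labels number no replicates. With 2 arrays a group, every call rests on the shared estimate of spread, and called changes as large as that of CNS1 in C406A (-0.39) turned sign with the scaling alone.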

Other observations

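Among the chaperone genes outside the 45, OPI10 and CUR1 were also high in untreated C403A. CUR1, a relative of BTN2, was chosen after its values were seen. OPI10 read 304 and 274 with MMS against 151 and 188 untreated in C403A, 238 and 245 with MMS against 94.1 and 105 untreated in C406A, and 243 and 268 with MMS against 78.4 and 70.2 untreated in wild type. CUR1 read 611 and 585 with MMS against 417 and 455 untreated in C403A, 578 and 615 with MMS against 357 and 366 untreated in C406A, and 593 and 589 with MMS against 291 and 288 untreated in wild type. With MMS the difference of C403A from wild type was 0.18 ± 0.14, adjusted p = 0.438 for OPI10 and 0.02 ± 0.08, adjusted p = 0.92 for CUR1, and their untreated levels were higher in C403A than in wild type, by 1.18 ± 0.14, adjusted p = 0.000964 for OPI10 and 0.59 ± 0.08, adjusted p = 0.00172 for CUR1 (limma). The untreated call of CUR1 was lost on the hybridization controls (0.34, adjusted p = 0.238), without normalization (0.61, adjusted p = 0.289) and with the 2 groups fitted alone (adjusted p = 0.0971), and that of OPI10 with the 2 groups fitted alone (adjusted p = 0.0866, limma). The MMS response of C403A differed from that of wild type by -1.002 for OPI10 and -0.576 for CUR1 (adjusted p = 0.0459 and 0.044, limma). Without the 2 arrays of highest ribosomal RNA signal the difference was -0.76 for OPI10 (adjusted p = 0.164) and -0.51 for CUR1 (adjusted p = 0.136, limma), and in both genes it lost its call without any single array of either strain but C403A untreated array 1. OPI10 was dim: with the floor at the 40th percentile its untreated difference was 0.18 (adjusted p = 0.283) and its difference of response -0.003 (adjusted p = 0.997).

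HSP12 read 746 and 771 with MMS against 426 and 382 untreated in C403A, 1670 and 1961 with MMS against 695 and 634 untreated in C406A, and 1108 and 879.8 with MMS against 357 and 398 untreated in wild type. C406A was its highest strain with and without MMS, by 0.87 ± 0.13, adjusted p = 0.00566 with MMS and 0.82 ± 0.13, adjusted p = 0.0107 untreated against wild type (limma). The response of C406A itself differed from that of wild type by 0.06 (adjusted p = 0.942). Its untreated call was lost without either C406A array (adjusted p = 0.0921 and 0.0568) and without wild type untreated array 1 (adjusted p = 0.0735), and its call with MMS without C406A MMS array 2 (adjusted p = 0.0553, limma). On the hybridization controls the untreated difference was 0.49 (adjusted p = 0.14) and without normalization 0.59 (adjusted p = 0.529). With MMS the call was also lost without normalization (adjusted p = 0.0802), and with the 2 groups fitted alone neither call held (adjusted p = 0.145 with MMS and 0.0983 untreated, limma).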
